A study of Drosophila melanogaster with 38 samples.

Results

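A part of the cytoplasmic ribosomal protein genes was followed in the head and thorax of ageing female Drosophila melanogaster across a change of diet. Members were all genes whose symbol in the array's annotation began with RpL or RpS, each taken from its probe set with the highest mean over 36 arrays. These were 41 of the 11982 genes with a single-gene probe set, and 35 of the 41 had a mean log2 expression score of at least 6 and entered the tests, as did 7826 of all genes. Canton-S flies, a wild-type laboratory strain, lived on control food (CF cohort) or restricted food (RF cohort), a dilution of the same sucrose and yeast. At an age of 40 days part of the CF flies was moved to restricted food (SF cohort). No group carried a transgene or a drug, and each array held RNA pooled from at least 75 females that had been kept together with males. The 3 cohorts were sampled at 12 time points from 2 to 72 h after the switch on Affymetrix Drosophila 2.0 arrays, 1 array per cohort and time point, and 1 CF and 1 RF array were also taken at 0 h.

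The ribosome is built from a large subunit, whose proteins have names that begin with RpL, and a small subunit, whose proteins begin with RpS. Each subunit has a near fixed set of proteins, and the genes for their proteins are transcribed at high levels in growing and in resting cells, and their translation responds to nutrients through the TOR pathway. Several fly ribosomal protein genes have a second copy, or paralogue, that is used mainly in the germline, and a few genes named after ribosomal proteins encode relatives that assist in assembling the subunits and are not part of the finished ribosome.

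The members were divided by level, at a mean score of 14, into a set called uniform here and a small set below it. The division was not made by spread. By SD over the 36 arrays the sets adjoined, at 0.080 in RpL41 of the uniform set and 0.098 in RpL34a of the other. In 29 of the 35 the mean score over all 36 arrays was between 14.14 (RpL28) and 14.82 (RpL15), and none of these ranked below the 99.3 percentile of probe sets on any array. They comprised 18 large subunit genes, with the stalk genes RpLP0, RpLP1 and RpLP2 among them, and 11 small subunit genes. The other 6 had means of 13.65 (RpS5b), 12.76 (RpL34a), 12.71 (RpL24-like), 11.71 (RpL7-like), 10.17 (RpLP0-like) and 6.23 (RpL37-2). RpL37-2, a paralogue of RpL37-1, lay just inside the limit of 6, and RpS19b, a paralogue known chiefly from the germline, lay just outside with a mean of 5.65. The others left out were RpS28a at 5.48, RpS10a at 4.48, RpL10Aa at 4.34, RpS28-like at 3.95 and RpL22-like at 3.61. Scores of different genes depend on their probes and are not compared here as amounts. RpS6, the substrate of S6 kinase, had no probe set under that symbol and was not analysed here. The same held for many other ribosomal protein genes, RpL34b among them. The results thus cover the members measured and not the whole family.

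Among the 29 genes scores hardly moved between arrays. Their SD over the 36 arrays was 0.024 to 0.080 with a median of 0.039, where the median over all 9420 probe sets tested was 0.20. The mean of the 29 was 14.48 ± 0.027 in CF, 14.49 ± 0.024 in RF and 14.51 ± 0.020 in SF (mean ± SD, n = 12 arrays each). Its lowest, median and highest arrays were at 14.43, 14.49 and 14.52 in CF, at 14.45, 14.49 and 14.53 in RF, and at 14.47, 14.51 and 14.54 in SF. The 3 ranges overlapped. A small spread was shared by other probe sets near the top of the scale. The 116 tested probe sets with a mean of at least 14 had a median SD of 0.042. Of these, 86 were not members, with a median size of the difference in RF minus CF of 0.013. Limma called 8 of the 86 in RF minus CF, 1 in SF minus CF and 3 in SF minus RF. The 86 can include ribosomal protein genes whose probe sets carried no symbol or several symbols, and this was not checked. Over all probe sets tested the shares called were 7.42%, 1.8% and 1.95%. The part of the level in the small spread was not tested.

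RF was compared with CF to ask which transcripts differed after long feeding on either diet. Of the 35 ribosomal protein genes limma called 1, RpL24-like, which was higher in RF, while 7.42% of all probe sets tested were called in this comparison. None of the 29 uniform genes passed, at an unadjusted p under 0.05 either, and the paired t-test of the study's methods called 0 of them after Benjamini-Hochberg adjustment and 1 unadjusted (22.7% of all probe sets). Their median difference was 0.0037 on the log2 scale with 19 of 29 positive, against -0.0091 over all probe sets, and the median size of a difference was 0.0094 against 0.070. The large subunit genes outside the stalk had a median difference of 0.0043 (10 of 15 positive), the stalk genes -0.0094 (1 of 3 positive) and the small subunit genes 0.0037 (8 of 11 positive). The sign of the small median was not stable: it was -0.0012 with 13 of 29 positive without 18 h, 0.013 at 2 to 18 h and -0.0053 at 24 to 72 h. The 29 differences ran from -0.041 in RpL27 to 0.031 in RpL37-1. All 29 of the 95% confidence intervals lay within 0.15 of 0, and 27 lay within 0.1. In RpL27, which encodes a large subunit protein, the difference was -0.041 (SE 0.029, adjusted p = 0.557), with a negative sign at 7 of 12 time points. RpL37-1 differed by 0.031 (SE 0.025, adjusted p = 0.599) and was positive at 10 of 12. RpL41, which encodes a very short large subunit peptide, had 0.029 (SE 0.039), RpS20 had 0.022 (SE 0.026) and RpL28 had -0.023 (SE 0.028). RpL32, a gene widely used as a reference in fly expression work, scored 14.44, 14.50 and 14.52 at its lowest, median and highest array in CF and 14.46, 14.50 and 14.55 in RF, and its difference was 7.0e-05 (95% confidence interval -0.053 to 0.053).

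**Figure D1:**
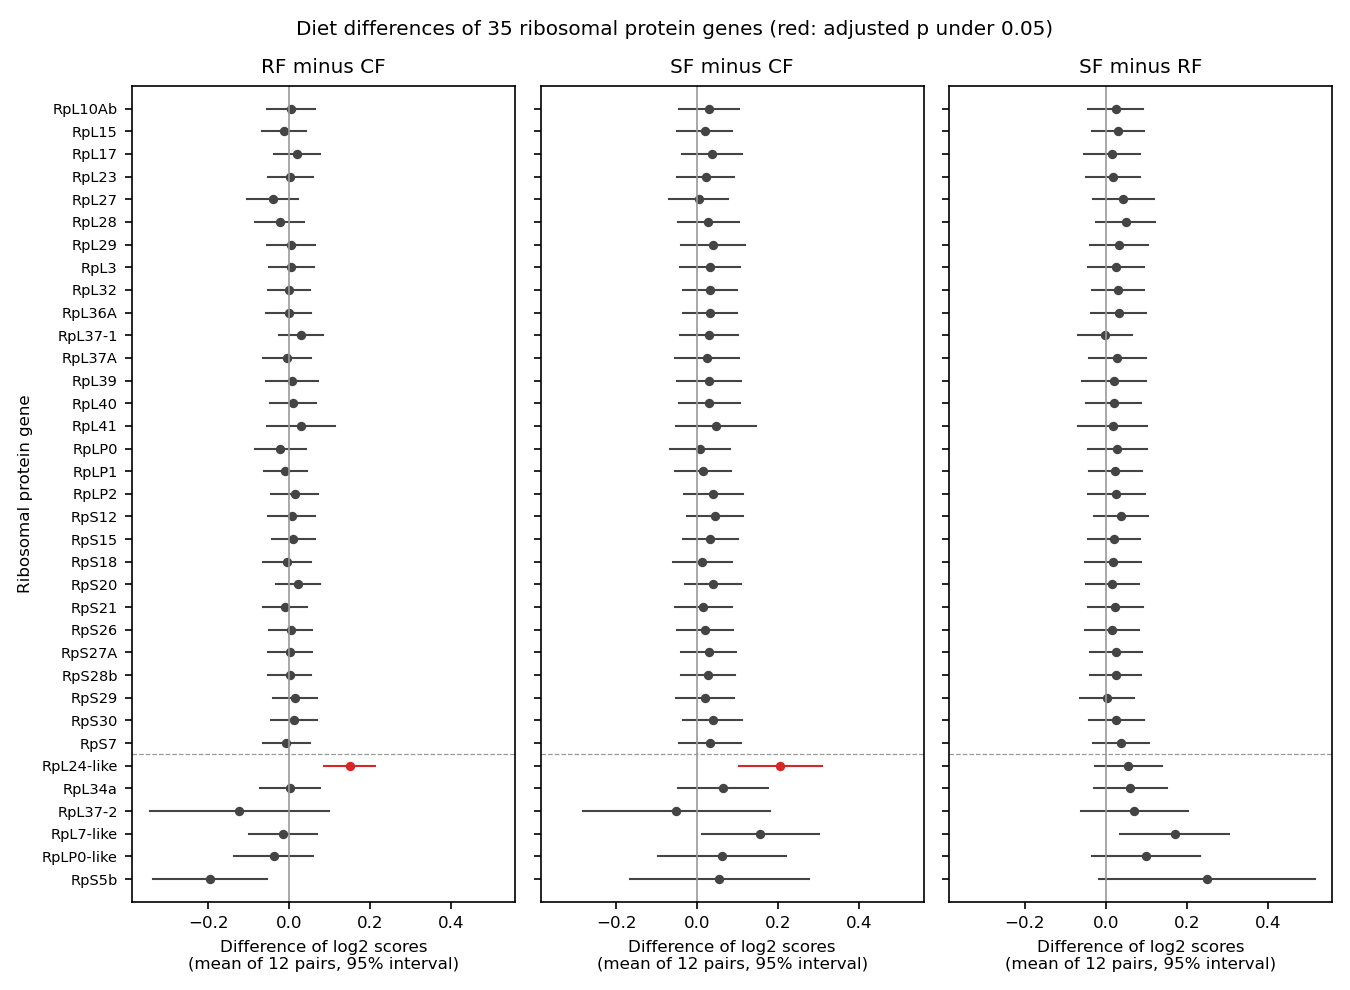
Difference of log2 scores between cohorts (x axis, mean of 12 pairs of arrays with its 95% confidence interval from limma) for the 35 ribosomal protein genes (y axis), in RF minus CF, SF minus CF and SF minus RF. The 29 genes above the dashed line stay within 0.05 of 0 in all 3 panels, and the red points, with an adjusted p under 0.05, are RpL24-like at 0.15 in RF minus CF and at 0.20 in SF minus CF.

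The switched cohort was set against CF to find what a change of food altered over 72 h, and against RF to find what still differed from flies restricted throughout. Both comparisons used the same 12 SF arrays, and the CF arrays served both RF minus CF and SF minus CF. In SF minus CF limma called 1 of the 35 genes, RpL24-like, against 1.8% of all probe sets. No other member was called. All 29 uniform genes had a positive difference, from 0.0031 in RpL27 to 0.046 in RpL41, with a median of 0.029, while 53.8% of all probe sets were positive with a median of 0.0088. These genes are not independent of each other, with a median pairwise r of 0.43 over the 36 arrays after removal of cohort means. The median of the 29 within a pair of arrays was highest at 18 h, at 0.099, and it was below 0 at 2, 4 and 40 h (-0.017, -0.017 and -0.0019). Of the ovarian transcripts, 13 of 13 eggshell genes (median 0.22) and 16 of 19 germline genes (median 0.13) had positive differences, limma called 0 of them (0 unadjusted), and at 18 h the eggshell mean differed by 2.27. With the germline mean as a covariate, a setting chosen after seeing the data, 27 of the 29 were positive with a median of 0.023. RpS12, a small subunit gene, had a difference of 0.044 (SE 0.032, adjusted p = 0.562) and was positive at 11 of 12 time points. At the low end were RpLP0 with 0.0071 (SE 0.035), RpS18 with 0.012 (SE 0.034) and RpLP1 with 0.014 (SE 0.032). None of the 29 passed in limma (0 at an unadjusted p under 0.05) or in the paired t-test after adjustment, and 9 did in the unadjusted t-test, which called 9.58% of all probe sets. The SE in limma draws on the spread of all probe sets, and its median over the 29 was 0.034, where the SE of the 12 differences alone had a median of 0.016.

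In SF minus RF limma called 0 of the 35 genes (1 at an unadjusted p under 0.05), against 1.95% of all probe sets. The paired t-test called 2 after adjustment, RpL15 and RpS28b (1.72% of all probe sets), and 11 unadjusted (12.3% of all probe sets). RpL15 had a difference of 0.030 (SE 0.030, limma adjusted p = 0.656), positive at 10 of 12 time points, and RpS28b had 0.024 (SE 0.029, limma adjusted p = 0.717), positive at 11 of 12. Of the 29 uniform genes 28 were positive, with a median of 0.025 against 0.0081 over all probe sets, and the exception was RpL37-1 at -0.0021. Here too eggshell genes (12 of 13 positive, median 0.32) and germline genes (17 of 19 positive, median 0.28) had mostly positive differences, with 0 called by limma (0 unadjusted). The median of the 29 was 0.015 with the germline covariate and 0.016 after median centring of the arrays, and 27 of 29 were positive in both. The highest were RpL28 at 0.049 (SE 0.034) and RpL27 at 0.044 (SE 0.035), and the lowest after RpL37-1 were RpS29 at 0.0036 (SE 0.031), RpL17 at 0.015 (SE 0.032) and RpS26 at 0.016 (SE 0.031). All 29 confidence intervals lay within 0.15 of 0.

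The ribosomal stalk recruits translation factors to the large subunit and is made of RpLP0, RpLP1 and RpLP2. RpLP0 scored between 14.27 and 14.46 over the 36 arrays, RpLP1 between 14.73 and 14.85, and RpLP2 between 14.52 and 14.71. RpLP0 differed by -0.022 (SE 0.029) in RF minus CF and by 0.029 (SE 0.034) in SF minus RF. RpLP2 differed by 0.014 (SE 0.027) in RF minus CF and 0.040 (SE 0.034) in SF minus CF. RpL40 and RpS27A are made as fusions to ubiquitin, and RpS30 as a fusion to a ubiquitin-like protein. RpL40 differed by 0.0100 (SE 0.027) in RF minus CF and by 0.029 (SE 0.035) in SF minus CF, and RpS27A by 0.0028 (SE 0.025) and 0.028 (SE 0.031). RpS30 differed by 0.012 (SE 0.026) and 0.038 (SE 0.034). None of these 6 genes was called in any of the 3 comparisons.

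RpL24-like was the ribosomal protein relative that differed between diets. Its yeast counterpart Rlp24 holds the place of the ribosomal protein L24 in precursors of the large subunit and is exchanged for it late in assembly. RpL24-like scored 12.45 at its lowest, 12.56 at its median and 12.73 at its highest array in CF, 12.66, 12.72 and 12.84 in RF, and 12.63, 12.80 and 12.90 in SF. The cohorts overlapped in part: 6 of 12 RF arrays and 10 of 12 SF arrays were above the highest CF array, and 7 of 12 CF arrays were below the lowest RF array. RF minus CF was 0.15 (SE 0.030, 95% confidence interval 0.086 to 0.21, adjusted p = 0.0115), which is 10.9% higher (6.12% to 15.9%), and RF lay above CF at each of the 12 time points. An exact permutation test that flipped the signs of the 12 pairs gave p = 0.000488 (two-sided), the smallest it can give. SF minus CF was 0.20 (SE 0.048, interval 0.10 to 0.31, adjusted p = 0.0295), which is 15.2% higher (7.30% to 23.8%), with SF above CF in 10 of 12 pairs (the same exact permutation test, p = 0.00195). The permutation p-values are unadjusted and do not set RpL24-like apart in SF minus CF. There the uniform gene RpL36A had a smaller p in the same exact permutation test (p = 0.00146). The limma call of RpL24-like in SF minus CF is near the threshold. It was lost when 6, 8, 18, 24, 32, 40, 48, 56 or 72 h was left out (adjusted p between 0.0516 and 0.0747), and when SF minus CF was adjusted on its own (adjusted p = 0.0665). SF minus RF was 0.055 (SE 0.038, interval -0.028 to 0.14, adjusted p = 0.539).

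In the time course of RpL24-like the lowest differences of SF minus CF and of RF minus CF both lay at 2 and 4 h. CF scored 12.67 at each of these hours, above its median of 12.56. These hours were picked after their values were seen, and their difference from later hours was not tested. SF minus CF was -0.040 at 2 h and -0.010 at 4 h, and then 0.24 at 6 h and 0.34 at 8 h. It was 0.16 at 12 h, 0.37 at 18 h, 0.14 at 24 h and 0.39 at 32 h, and from 40 to 72 h it lay between 0.14 and 0.36. The only negative differences were thus those at 2 and 4 h, each from 1 array per cohort. RF minus CF was 0.067 at 2 h and 0.033 at 4 h, its lowest values, and reached 0.29 at 18 h. Over the windows of 2 to 18 h and 24 to 72 h the mean was 0.15 and 0.14 in RF minus CF and 0.18 and 0.23 in SF minus CF, and the change between windows did not pass the test in SF minus CF (0.057, SE 0.097, adjusted p = 0.862).

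**Figure D2:**
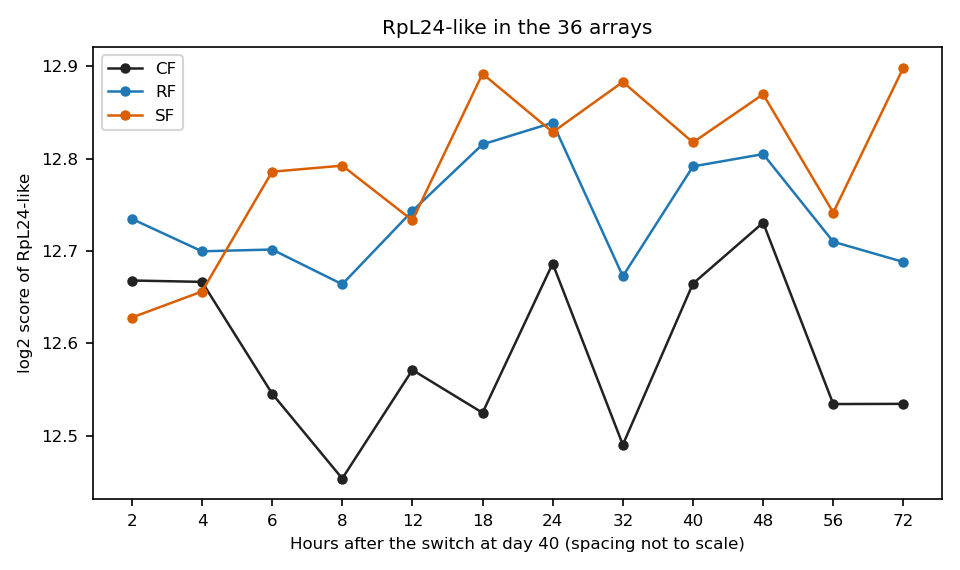
log2 score of RpL24-like (y axis) against hours after the switch (x axis, time points evenly spaced) in the CF, RF and SF cohorts, 1 array per point. The RF line lies above the CF line at 12 of 12 time points, and the SF line lies below both at 2 and 4 h and above CF at the other 10.

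RpL7-like and RpLP0-like are also named after ribosomal proteins and have yeast counterparts, Rlp7 and Mrt4, that act in assembly of the large subunit. RpL7-like scored 11.38, 11.65 and 11.90 at its lowest, median and highest array in CF, 11.42, 11.69 and 11.81 in RF, and 11.53, 11.84 and 12.02 in SF. Of the SF arrays, 7 of 12 were above the highest RF array and 4 of 12 above the highest CF array. SF minus RF was 0.17 (SE 0.062, interval 0.036 to 0.30, adjusted p = 0.191), positive at 11 of 12 time points, and SF minus CF was 0.16 (SE 0.067, interval 0.011 to 0.30, adjusted p = 0.293), positive at 8 of 12. Neither passed the threshold, although limma with array weights called SF minus RF (0.17), a fit that called 9.61% of all probe sets. RF minus CF was -0.015 (SE 0.039). RpLP0-like differed by -0.038 (SE 0.045) in RF minus CF, 0.060 (SE 0.073) in SF minus CF and 0.099 (SE 0.062) in SF minus RF, and passed in none.

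Other genes for building ribosomes and for translation were counted beside all probe sets tested. Of these limma called 7.42% in RF minus CF, 1.8% in SF minus CF and 1.95% in SF minus RF. Of 23 ribosome biogenesis genes that were tested, 0 were called in RF minus CF (6 at an unadjusted p under 0.05), with 1 positive and a median of -0.11 (all probe sets -0.0091). In SF minus CF 1 was called, Non1, a nucleolar GTPase gene, at 0.20 (SE 0.050, adjusted p = 0.0425), and the median was 0.049 with 17 of 23 positive. In SF minus RF 0 were called (3 unadjusted), with 23 of 23 positive and a median of 0.15. Over all probe sets 46.1% were positive in RF minus CF, 53.8% in SF minus CF and 52.7% in SF minus RF. The signs of ovarian transcripts ran the same way. Germline genes had 2 of 19 positive in RF minus CF (median -0.16) and 17 of 19 in SF minus RF (median 0.28). For eggshell genes it was 4 of 13 and 12 of 13. The part of ovarian tissue in the biogenesis differences was not tested. The fibrillarin gene Fib was at -0.15 between RF and CF (SE 0.061, adjusted p = 0.271), and at 0.21 between SF and RF (SE 0.085, adjusted p = 0.262). Of 32 initiation, elongation and release factor genes, limma called 0 in each comparison (5, 6 and 5 unadjusted in RF minus CF, SF minus CF and SF minus RF), with medians of -0.0023, 0.046 and 0.056. Among them eIF3a, a subunit of the initiation factor eIF3, came closest, with -0.13 between RF and CF (SE 0.035, adjusted p = 0.0579). Of 18 genes of TOR and S6 kinase signalling 0 were called (0, 1 and 0 unadjusted), and of 69 mitochondrial ribosomal protein genes 1 was, mRpS7, whose score in RF exceeded that in CF by 0.16 (SE 0.038, adjusted p = 0.0302). The mitochondrial genes had 13, 1 and 1 at an unadjusted p under 0.05, and 48, 56 and 39 of 69 were positive in RF minus CF, SF minus CF and SF minus RF, with medians of 0.025, 0.032 and 0.0040.

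RpS5b had an SD of 0.30 over the 36 arrays, where the 29 uniform genes had 0.024 to 0.080. It is a paralogue known for its use in the female germline, and encodes a small subunit protein. Its scores were 13.25, 13.76 and 14.04 at the lowest, median and highest array in CF, 12.88, 13.65 and 13.91 in RF, and 13.30, 13.75 and 14.12 in SF. The ranges overlapped widely, and 3 of 12 RF arrays were below the lowest CF array. RF minus CF was -0.20 (SE 0.066, interval -0.34 to -0.054, adjusted p = 0.146), with a negative sign at 11 of 12 time points. It did not pass in limma, and passed with array weights (-0.21), a fit that called 16.6% of all probe sets. SF minus CF was 0.054 (SE 0.10, adjusted p = 0.823). Against RF the SF cohort differed by 0.25 (SE 0.12, interval -0.016 to 0.52, adjusted p = 0.374). Single pairs reached -0.78 in RF minus CF at 32 h, 0.87 in SF minus CF at 8 h and 1.23 in SF minus RF at 8 h.

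Arrays with high RpS5b were arrays with high scores of ovarian transcripts. The dissected tissue was head and thorax, yet 13 of 18 listed eggshell genes (chorion and vitelline membrane) were measured, all above the limit, and their mean ran from 9.57 to 12.5 in CF, from 9.55 to 12.2 in RF and from 10.2 to 12.6 in SF. Of 22 listed germline genes 20 were named on the array and 19 passed, and the mean of the 19 ran from 8.58 to 9.78 in CF, from 8.31 to 9.75 in RF and from 8.76 to 9.95 in SF. Over the 36 arrays RpS5b correlated with the germline mean at r = 0.937 and rho = 0.905 and with the eggshell mean at r = 0.829 and rho = 0.803. The adjusted p of each was 4e-05 in permutation tests over 24 coefficients, from the raw p = 1e-05 that is the smallest 100000 permutations can give. The r with the germline mean was 0.939 among CF arrays, 0.951 among RF arrays and 0.953 among SF arrays, and without the 2 farthest arrays it was 0.921. In bulk RNA a change in the number of cells of a type and a change in RNA per cell cannot be told apart. With the germline mean as a covariate RpS5b differed by -0.12 in RF minus CF (adjusted p = 0.107) and by 0.066 in SF minus RF (adjusted p = 0.583), where the values without it were -0.20 and 0.25.

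The 5 probe sets most like RpS5b by Pearson r over the 36 arrays were CG11674 (r = 0.984), zpg, which encodes the germline innexin (r = 0.976), CG14545 (r = 0.975), yl, the yolk protein receptor gene (r = 0.974), and fs(1)N, a gene needed for a sound eggshell (r = 0.973). The 95th percentile of r over all probe sets tested was 0.872. RpL24-like had other neighbours, named here after their values were seen: CG4364 (r = 0.823), the alkaline phosphatase genes Alp10 (r = 0.813), phu (r = 0.808) and Alp2 (r = 0.804), and Non1 (r = 0.797), with a 95th percentile of 0.459. Among the arrays of CF, of RF and of SF taken alone, r was 0.840, 0.831 and 0.849 for CG4364 and 0.805, 0.709 and 0.694 for Non1. For phu it was 0.356, 0.330 and 0.806.

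**Figure D3:**
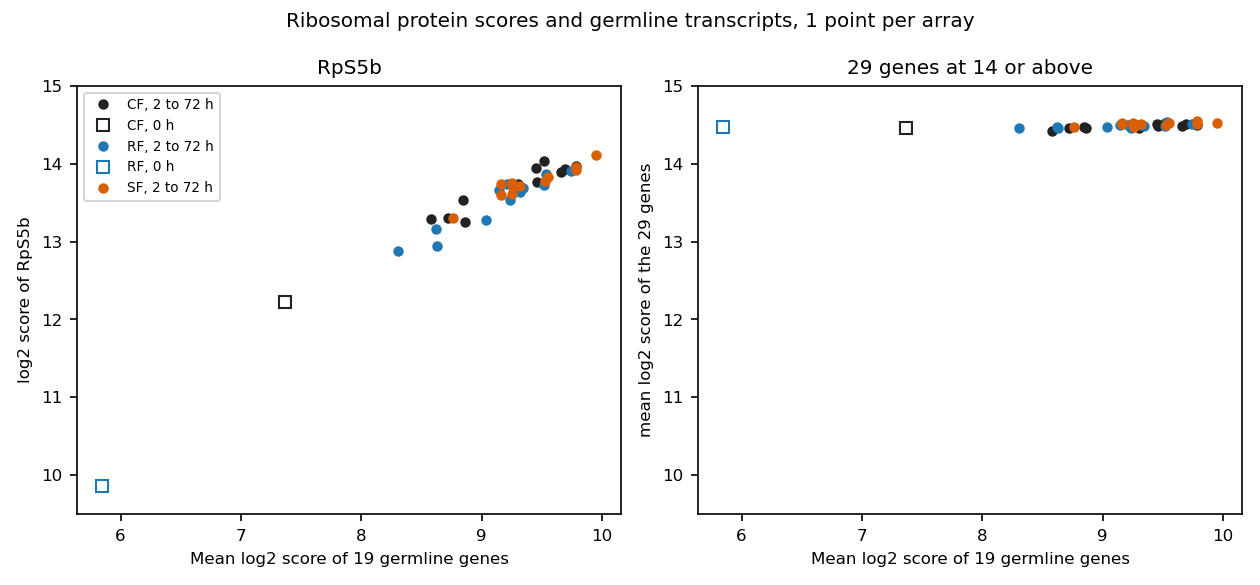
log2 score of RpS5b (left) and mean log2 score of the 29 uniform genes (right) on the same y axis, against the mean log2 score of 19 germline genes (x axis), 1 point per array, filled for 2 to 72 h and open squares for 0 h. RpS5b climbs with the germline mean from 9.86 on the RF array at 0 h to 14.12, and the mean of the 29 genes stays between 14.43 and 14.54.

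The other members followed these transcripts less closely than RpS5b, by the coefficients computed. The r with the germline mean was 0.701 for RpL7-like, 0.656 for RpLP0-like and 0.443 for RpL34a (adjusted permutation p = 4e-05, 6.86e-05 and 0.0129), and 0.267 for RpL24-like and 0.0733 for RpL37-2 (adjusted p = 0.147 and 0.672). Without the 2 farthest arrays these were 0.627, 0.631, 0.357, 0.192 and 0.127. Their rho was 0.624, 0.641, 0.388, 0.247 and 0.0726. Within the SF cohort alone RpLP0-like had 0.430 and RpL34a 0.186. Among the 29 uniform genes r with the eggshell mean ran from -0.012 in RpS29 to 0.712 in RpLP0, with a median of 0.46. The median over all probe sets tested was 0.048, given as a description. With the same eggshell mean RpL7-like had 0.673 and RpLP0-like 0.603, both below RpLP0. The r of the 29 with the germline mean was not computed. The germline covariate was a setting chosen after seeing the data. With it RpL24-like differed in limma by 0.14 in RF minus CF (adjusted p = 0.0112) and 0.19 in SF minus CF (adjusted p = 0.0241). The part of ovarian tissue in these differences was not tested.

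Markers of the labelled tissue were present. Of 13 listed flight muscle genes 10 were measured, all above the limit, with array means from 9.22 to 10.7, and of 12 photoreceptor genes 6 were, with means from 9.16 to 10.97. Of 10 neuronal genes 9 were measured and 6 reached 6, with means from 6.22 to 7.53. RF minus CF was a comparison in which RpL24-like was called, and 7.42% of all probe sets were called there. By limma 4 of the 10 muscle genes were higher in it and 1 was lower, and 4 of 6 yolk and fat body genes were lower. Of the ovarian transcripts 1 of 19 germline genes was called, as lower (2 unadjusted), with 2 positive and a median of -0.16. Of 13 eggshell genes 0 were called (0 unadjusted), with 4 positive and a median of -0.11. The part of these genes in the result was not tested. In SF minus CF 0 muscle genes were called by limma (0 unadjusted) and 3 of 6 yolk and fat body genes were lower, where 1.8% of all probe sets were called. SF minus RF had 1.95% of all probe sets called. There 1 muscle gene was higher and 1 lower (6 unadjusted), with 1 of 10 positive and a median of -0.34. Yolk and fat body genes had 0 called there (1 unadjusted).

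The remaining paralogues gave no call. RpL34a, which has a partner gene RpL34b not analysed here, scored 12.50, 12.71 and 12.90 at its lowest, median and highest array in CF, 12.61, 12.74 and 12.90 in RF, and 12.66, 12.80 and 12.93 in SF. It differed by 0.0026 (SE 0.035) in RF minus CF, 0.063 (SE 0.052) in SF minus CF and 0.061 (SE 0.042) in SF minus RF. RpL37-2 scored 5.89, 6.27 and 6.88 in CF, 5.84, 6.13 and 6.64 in RF, and 5.95, 6.25 and 6.69 in SF, and differed by -0.12 (SE 0.10, adjusted p = 0.605), -0.052 (SE 0.11) and 0.071 (SE 0.061). Its partner RpL37-1 had SEs of 0.025 to 0.033. Second probe sets that passed the limit were found for RpL3, RpS30 and RpS29, and 0 of the 3 were called. The second probe set of RpL3, with a mean of 8.24, had a difference of -0.32 between RF and CF (SE 0.12, adjusted p = 0.235), where the first had a mean of 14.24 and a difference within 0.05 of 0. Of the 29 uniform genes 16 were measured by probe sets whose type can detect more than 1 transcript.

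Levels shared by the 3 cohorts at a time point were tested over the 36 arrays. The limma F test called 0 of the 35 genes (1 at an unadjusted p under 0.05), against 3.42% of all probe sets. The time means of the 29 uniform genes spanned 0.035 to 0.22, with a median of 0.068, where the median over all probe sets was 0.39 and over those with a mean of at least 14 it was 0.084. RpL3, which encodes a protein near the peptidyl transferase centre, had the smallest p (p = 0.0317 in limma, adjusted p = 0.280). Its time mean was lowest at 4 h, at 14.13, and highest at 48 h, at 14.35. The 3 arrays at 48 h lay at 14.36, 14.33 and 14.37 in CF, RF and SF, and those at 4 h at 14.07, 14.13 and 14.17. When the prior variance followed the level, RpL3 was called, in a fit added after seeing the data that called 3.57% of all probe sets. RpS5b had the widest span, 0.52, from 13.40 at 18 h to 13.92 at 48 h (adjusted p = 0.508), and was called when the SF cohort was left out, as were 18.4% of all probe sets. RpL37-2, near the limit of 6, spanned 0.46 and was highest at 40 h. RpLP0-like spanned 0.33, RpL7-like 0.28, RpL34a 0.23 and RpL24-like 0.16, all 4 with their highest time mean at 48 h. That hour was not particular to them. Many uniform genes, such as RpL17, RpL28 and RpS7, were also highest at 48 h, while RpL15 was highest at 40 h and RpL32 at 72 h. The largest p were those of RpS18, RpS29 and RpS15, with spans of 0.035, 0.052 and 0.040. A batch of whole time points and the time itself cannot be told apart.

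**Figure D4:**
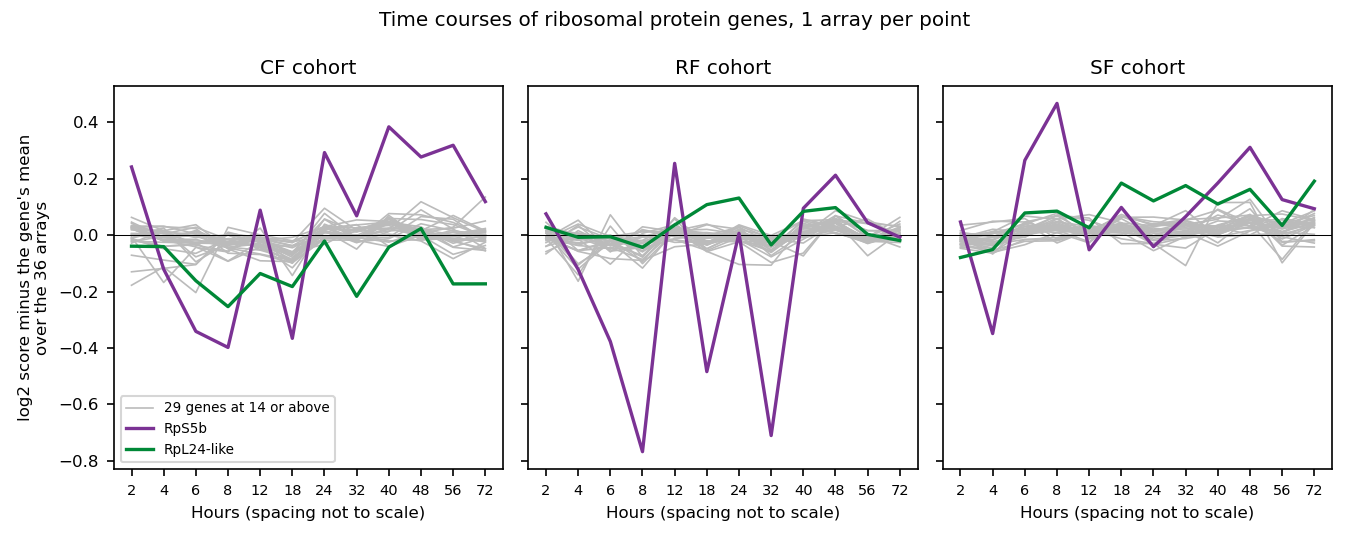
log2 score minus the gene's mean over the 36 arrays (y axis) against hours (x axis, time points evenly spaced), 1 panel per cohort and 1 array per point, for the 29 uniform genes (grey), RpS5b (purple) and RpL24-like (green). The grey lines stay close to 0, RpS5b reaches -0.77 at 8 h in RF and 0.47 at 8 h in SF, and RpL24-like lies below its mean at most time points in CF and above it from 6 h in SF.

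Whether a difference between cohorts changed within the 72 h was tested as the mean at 24 to 72 h minus that at 2 to 18 h. Limma called 0 of the 35 genes in each of the 3 comparisons (0 at an unadjusted p under 0.05), and 0% of all probe sets passed (2043, 1334 and 193 unadjusted). In SF minus CF the change was highest in RpL37-2 at 0.40 (SE 0.19), RpL24-like at 0.057 and RpL37-1 at 0.054, and lowest in RpS5b at -0.35 (SE 0.19, adjusted p = 0.453), RpLP0-like at -0.25 (SE 0.13) and RpL41 at -0.14 (SE 0.084).

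At 0 h the single CF and RF arrays had eggshell means of 7.99 and 5.54, below all 36 later arrays, and germline means of 7.36 and 5.85. RpS5b scored 12.23 in CF and 9.86 in RF, a difference of -2.37, outside its later range of -0.78 to 0.17. The 29 uniform genes had a median difference of 0.010 (15 of 29 positive), against -0.035 over all probe sets tested. Of the 29, 7 were outside their later range, a count for which the share over all probe sets was not computed. RpL24-like scored 12.53 and 12.76, which is a difference of 0.23 and inside its later range. With 1 array per group these values have no replicate check.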

How the data were processed

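Total RNA of head and thorax was hybridised to Affymetrix Drosophila 2.0 arrays. The authors quantile normalised the arrays and summarised them by RMA, and deposited the values as log2 expression scores. Their methods name a PVAC filter on probe sets, but the deposited table holds 18952 probe sets. The scanner files were not used here, and the number of arrays limits the precision. Control probe sets (183) were left out, and 9420 of the other 18769 with a mean of at least 6 over the 36 arrays at 2 to 72 h were tested. Genes were named from the platform annotation, updated to RefSeq symbols where the identifier matched (13647 probe sets with 1 gene, 402 with several and 4720 with none). Of the members' probe sets, 47 named 1 gene, and 3 that named several were left out.

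Cohorts were compared with limma 3.58.1 in R 4.3.3 on the 12 differences of arrays collected at the same time, a pairing taken from the study's methods, and p-values of the 3 diet comparisons were adjusted together (Benjamini-Hochberg, threshold 0.05). The time F test used cohort as a covariate. The labels name no separate cultures for the arrays at a time point, so p-values measure the spread between time points. Scripts were tested on simulated data. The members and gene lists were chosen with earlier results of these data known. The genes named are, for each comparison, the members called and the 4 highest and 4 lowest, the 6 smallest and 3 largest p over time, the 3 highest and lowest changes between windows in SF minus CF, all paralogues measured, the stalk and ubiquitin fusion genes, and the 5 probe sets most like RpS5b. Other genes were chosen after their values were seen. Alternatives were the unpaired fit, 1 fit of all arrays, array weights, median centring, eggshell or germline covariates, other filters, part of the time points, each time point left out, separate adjustment, all probe sets of a gene, the methods' paired t-test, a trend in the prior variance, and the 0 h pair.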

Additional observations from a re-analysis of the deposited data

How the results depend on the processing

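Of 35 genes, the number called in RF minus CF was 1 (7.42% of all probe sets). It was 2 with array weights (RpS5b added, 16.6% of all probe sets) and 3 in the unadjusted paired t-test (22.7%). It was 0 at 2 to 18 h alone (0.18%) and 0 at 24 to 72 h alone (18.3%), with 6 time points each. RpL24-like was called in 25 of 27 alternatives, with differences of 0.14 to 0.16. In SF minus CF the number was 1 (1.8% of all probe sets). It was 0 at 2 to 18 h alone, where 0% of all probe sets were called, so that 0 is not particular to the members. It was 0 with separate adjustment (0.966%) and 11 in the unadjusted t-test (9.58%). With each time point left out it was 0 to 1 (from 0.998% without 40 h to 2.22% without 2 h). The call of RpL24-like there held in 15 of 26 alternatives and was lost without 6, 8, 18, 24, 32, 40, 48, 56 or 72 h, with differences of 0.18 to 0.23 throughout. In SF minus RF the number was 0 (1.95% of all probe sets). It was 1 with array weights (RpL7-like, 9.61%), 2 in the adjusted t-test (1.72%) and 11 in the unadjusted one (12.3%). For the time of collection the number was 0 (3.42% of all probe sets). It was 1 with a trend in the prior variance (added after seeing the data, 3.57%). With each cohort left out it was 0 to 1, the 1 being RpS5b without SF (18.4%). Array weights could not be fitted to the time model, since the estimation did not converge. The cause of these changes was not tested. Without the pairing by time (no replicate block) limma called the same numbers, 1, 1 and 0. The median difference of the 35 genes moved by less than the spread between pairs in every alternative run, and no call changed sign. The change between windows gave 0 calls in each alternative.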
